A study of Mus musculus with 20 samples.

Results

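Promoter upstream transcripts (PROMPTs) are short-lived RNAs that start at the promoters of protein-coding genes and run away from the gene, usually in the antisense direction. The regions described here were the PROMPT regions of moderately expressed protein-coding genes in SIMS cells, a mouse salivary gland line. A region was a member when its gene was annotated as protein-coding in GENCODE release M21 and had a mean of at least 50 but under 1000 counts over wild-type libraries 2, 3 and 4. This chose 6046 of the 55471 PROMPT regions counted. Protein-coding genes with a mean of 1000 or more gave 3959 other regions, and those with a mean under 50 gave 11969. Members were thus selected on gene counts of wild type alone, and PROMPT counts played no part in it.

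The 5 groups were unedited wild-type cells, a Btbd7 KO made with CRISPR/Cas9 that serves as the negative control, and 3 clones of a Zcchc8 KO made the same way. All cells were grown in DMEM with 10% FBS, and total RNA was sequenced from 4 libraries of each group. Wild-type library 1 was not analysed here, since the PROMPT table has no column for it, which leaves 3 wild-type and 16 KO libraries. Each Zcchc8 KO clone is 1 line, and nothing in the labels says that the libraries of a group came from separate cultures, so the p-values measure only the spread between these libraries.

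ZCCHC8 holds together the NEXT complex, named for nuclear exosome targeting. NEXT joins the helicase MTR4 and the RNA-binding protein RBM7 and hands unspliced, short nuclear RNAs to the RNA exosome, which degrades them from the 3′ end. PROMPTs are among the best known substrates of this route, and they are normally hard to detect because they are degraded soon after they are made. The comparison asked which PROMPTs of moderately expressed genes rise when Zcchc8 is knocked out, and whether the genes beside them change as well.

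Members differ in what lies upstream of the gene, and the results turn on that difference. A member was called isolated when no other annotated gene overlapped the 5 kb upstream of its gene's start, which held for 2523 of 6046. The other 3523 had an annotated neighbour there. Among these, 1090 had a coding neighbour that starts in the 5 kb on the opposite strand (divergent coding) and 517 a non-coding one (divergent non-coding). A further 1020 had an opposite-strand gene whose start lies elsewhere, and 896 had a neighbour on the same strand only.

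To show what a promoter of this set looks like, the bases just before the annotated start of 5 genes follow. The genes were picked after their values were seen: Dhx40, Pdss2 and Ccdc15 as examples of isolated members whose PROMPTs rose in each clone, and Dand5 and Ripply1 because theirs were abundant and not called for the mean of the clones. Sequences are RefSeq on GRCm38.p6, read 5′ to 3′ on the strand of the gene, with each CG pair in capitals, and each ends at the base before the gene's start.
Dhx40: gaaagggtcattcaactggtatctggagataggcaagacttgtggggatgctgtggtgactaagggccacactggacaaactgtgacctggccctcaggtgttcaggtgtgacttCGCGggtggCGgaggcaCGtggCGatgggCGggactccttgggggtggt
Pdss2: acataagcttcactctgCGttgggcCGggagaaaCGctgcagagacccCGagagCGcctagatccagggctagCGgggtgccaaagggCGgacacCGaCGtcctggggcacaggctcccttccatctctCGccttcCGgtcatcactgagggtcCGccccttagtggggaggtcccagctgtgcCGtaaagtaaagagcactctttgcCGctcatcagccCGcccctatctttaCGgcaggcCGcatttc
Ccdc15: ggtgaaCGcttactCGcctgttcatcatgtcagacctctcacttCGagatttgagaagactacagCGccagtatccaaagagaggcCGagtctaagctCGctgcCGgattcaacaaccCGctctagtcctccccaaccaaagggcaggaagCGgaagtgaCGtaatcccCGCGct
Dand5: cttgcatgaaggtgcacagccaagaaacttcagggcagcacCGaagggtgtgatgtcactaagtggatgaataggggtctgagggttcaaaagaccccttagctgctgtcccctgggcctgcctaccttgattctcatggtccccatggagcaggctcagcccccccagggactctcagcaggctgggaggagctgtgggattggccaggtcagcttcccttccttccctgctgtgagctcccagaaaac
Ripply1: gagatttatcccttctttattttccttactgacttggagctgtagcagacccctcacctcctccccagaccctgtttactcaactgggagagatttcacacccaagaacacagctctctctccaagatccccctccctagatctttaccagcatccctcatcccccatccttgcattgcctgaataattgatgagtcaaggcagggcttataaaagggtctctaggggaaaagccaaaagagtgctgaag
The Dhx40 stretch lies at chr11:86807747-86807910 on the minus strand and holds 6 CG pairs in 164 bases. That of Pdss2 lies at chr10:43221236-43221485 on the plus strand and holds 17 in 250 bases, and that of Ccdc15, at chr9:37348433-37348607 on the minus strand, holds 12 in 175 bases. The Dand5 stretch (chr8:84822824-84823073, minus strand) holds 1 CG pair in 250 bases and that of Ripply1 (chrX:139782354-139782603, minus strand) holds 0. The 5 were picked after their values were seen and the stretches differ in length, so nothing about the calls is read from these numbers. Ripply1, not called for the mean, was called lower in clone 1 (-1.08) and higher in clone 2 (1.88). The ratio of observed to expected CG pairs is given for all isolated members with the promoter composition further on.

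Gene counts ran from 6833258 to 17771804 per library and PROMPT counts from 1569548 to 3966608. The 4 libraries of clone 1 were all shallow, with 6833258 to 7683444 gene counts. Zcchc8 RNA itself, which is no member at a wild-type mean of 1040 counts, was at 65.0 ± 3.23 CPM (counts scaled to a common gene-count total; SD, n = 3) in wild type and 62.2 ± 3.84 (n = 4) in the Btbd7 KO. It was at 60.8 ± 4.19 in clone 1, 23.6 ± 1.40 in clone 2 and 54.5 ± 4.83 in clone 3 (n = 4 each). The libraries of clones 2 (22.1 to 25.2 CPM) and 3 (50.2 to 60.6 CPM) all lay below those of wild type (61.4 to 67.7 CPM), by far the most in clone 2, and those of clone 1 (55.9 to 66.1 CPM) overlapped them. Which exon was edited is not given in the sources used here, and a whole-gene count does not show loss of the protein. Btbd7 RNA fell from 198 ± 6.25 CPM in wild type to 99.0 ± 3.61 in the Btbd7 KO. All 8 markers of duct epithelium had counts in every group, and their summed level was lower in every Zcchc8 KO library (3147 to 4109 CPM) than in every control library (4177 to 5099 CPM). The part of this shift in the PROMPT results was not tested. The 7 acinar markers summed to 109 to 184 CPM, nearly all from Aqp5 (109 to 183 CPM), with Smgc and Muc19 at 0 counts throughout and Amy1, Prol1, Dcpp1 and Bhlha15 at 0 to 2.13 CPM.

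The isolated members gave the plainest picture. Their PROMPT counts summed to 1.42, 1.46 and 1.49 per 1000 gene counts in the 3 wild-type libraries and to 1.34 to 1.44 in the 4 libraries of the Btbd7 KO. In the Zcchc8 KO they summed to 5.40 to 5.90 in clone 1, 4.49 to 4.67 in clone 2 and 4.37 to 4.76 in clone 3. Every Zcchc8 KO library stood above every control library, and the 3 clones were 3.74, 3.04 and 3.03 times the wild-type level in summed CPM, against 0.953 for the Btbd7 KO. The same ratios over members with a neighbour were 1.26, 1.18 and 1.19, and 1.02 for the Btbd7 KO. In a bulk extract, more cells carrying a transcript and more of it per cell cannot be told apart.

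**Figure D1:**
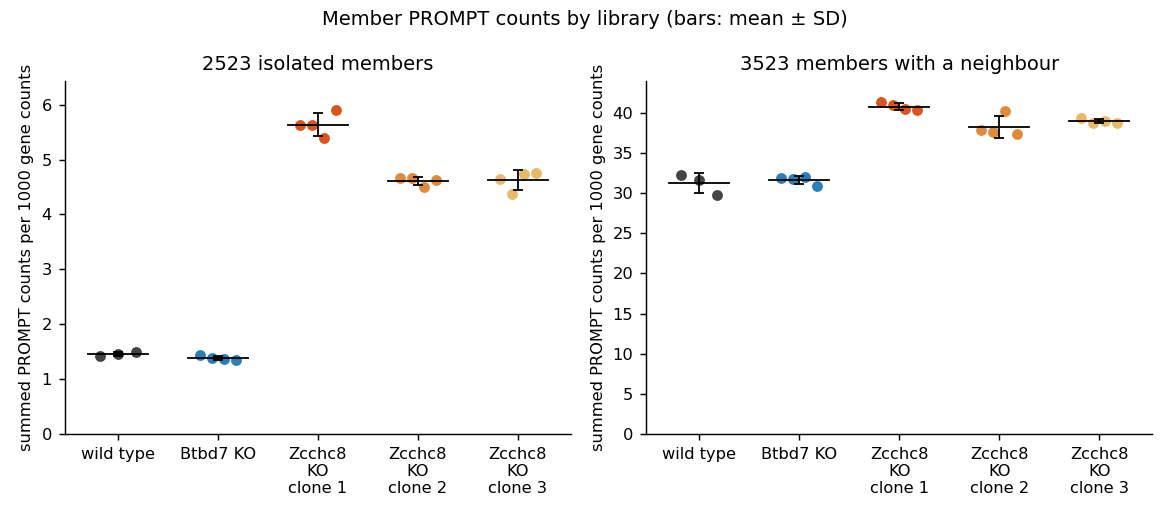
PROMPT counts summed over the 2523 isolated members (left) and the 3523 members with a neighbour (right), per 1000 gene counts, 1 point per library, with the mean and SD of each group. Isolated members lie at 1.34 to 1.49 in the 7 control libraries and at 4.37 to 5.90 in the 12 Zcchc8 KO libraries.

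Many isolated PROMPTs were at or near the detection limit in wild type. Of the 2523 isolated members, 736 had 0 counts in all 3 wild-type libraries and 100 had 0 counts in all 19. With each library thinned to the same number of gene counts, 40.2% to 45.7% of isolated members had at least 1 count in the wild-type libraries and 45.8% to 47.5% in the Btbd7 KO. In the Zcchc8 KO libraries the share was 69.6% to 75.9%, above every control library, and without thinning it was 70.9% to 83.3% against 45.5% to 58.3% in the controls. Across isolated members the median ratio of PROMPT to gene counts, on the log2 scale with 0.5 added to each count, was -7.93 to -7.45 in wild type, -7.54 to -7.14 in the Btbd7 KO and -5.32 to -4.81 in the Zcchc8 KO libraries.

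Counted over all 6046 members with no filter, 1695 (28.0%) were higher in all 12 Zcchc8 KO libraries than in all 3 wild-type ones, against 8.26% of all 55471 PROMPT regions. Of all regions, 15420 had 0 counts in every library, as had 178 of the members. The share above was 48.2% of the 3959 regions of coding genes with a mean of 1000 or more. It was 1.86% of the 11969 of those under 50. Only 12 members (0.198%) were lower in all 12, against 0.222% of all regions. Of the isolated members, 824 of 2523 (32.7%) were above without overlap and 0 below. The 4 Btbd7 KO libraries were all above wild type at 244 members (4.04%, all regions 1.94%) and all below at 189 (3.13%, all regions 2.15%), and at 36 and 55 of the isolated members. The mean CPM over the 3 clones was above that of wild type at 5080 members, below at 761 and equal at 205.

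The test across all regions was edgeR's quasi-likelihood test, with calls at a Benjamini-Hochberg adjusted p below 0.05. In it, 4288 of the 6046 members had enough counts to be tested. Between the mean of the 3 Zcchc8 KO clones and wild type, 2487 were called higher and 77 lower, with a median log2 fold change of 1.20. Of all 17655 regions tested, 39.9% were called higher and 3.31% lower, with a median of 0.45. A region with few wild-type counts could pass the count filter only through the libraries where it is high, so these counts describe the tested members and not all 6046. Among the 2618 tested members with a mean of at least 10 PROMPT counts in wild type, a condition added after the data were seen, 1136 were called higher and 77 lower, and the median was 0.39. Under the same condition 29.2% of 12765 regions were called higher, with a median of 0.19. When libraries were scaled by the PROMPT counts themselves rather than by the gene counts, which centres the median region at 0.02, the split became 1894 higher and 623 lower.

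Isolated members moved almost entirely one way. Of 1376 tested, 1115 were called higher and 0 lower (0 lower with DESeq2 as well, and 3 lower with no filter on counts), with a median log2 fold change of 2.55. Fitted fold changes of members at 0 counts in wild type depend on edgeR's prior count and are no bound, so that median is best read beside the next one, over members with counts in wild type. Over all isolated regions tested the share called higher was 69.9% and the median 2.19. Of the 401 isolated members with a wild-type mean of at least 10 PROMPT counts, 310 were called higher and 0 lower. The median over those 401 was 1.66, and the log2 fold changes of the 310 ran from 0.32 to 4.43, with 279 over 1, 139 over 2 and 42 over 3. Scaled by the PROMPT counts, 933 of 1227 tested isolated members were called higher and 5 lower, with a median of 2.19.

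**Figure D2:**
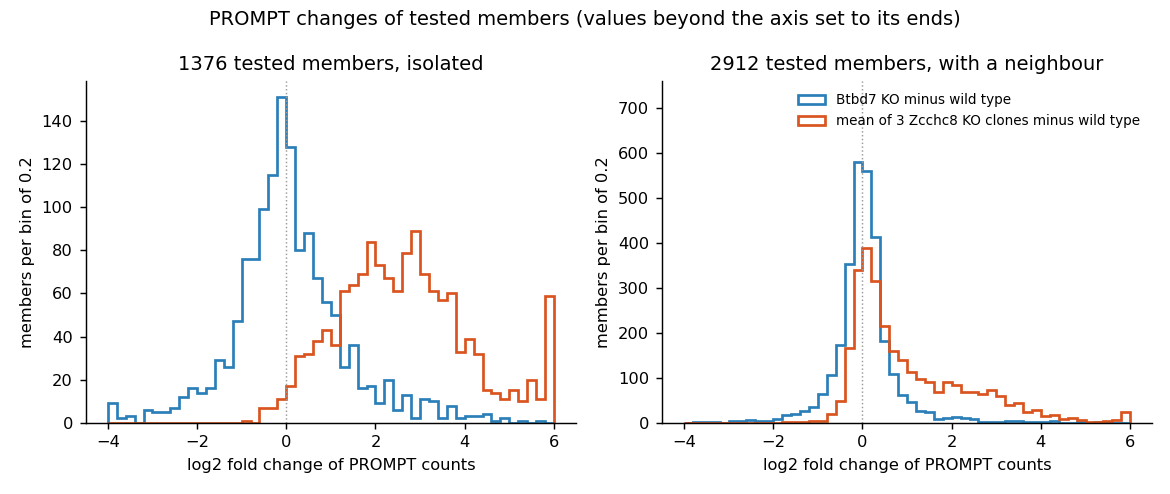
Log2 fold changes of PROMPT counts for the 1376 tested isolated members (left) and the 2912 tested members with a neighbour (right), in bins of 0.2, for the Btbd7 KO and for the mean of the 3 Zcchc8 KO clones, each against wild type. The isolated members centre at 2.55 in the Zcchc8 KO and at -0.02 in the Btbd7 KO, while those with a neighbour centre at 0.56 and 0.02.

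Each clone gave the same direction. In clone 1, 2451 members were called higher and 77 lower (all regions 39.3% and 3.79%). In clone 2 the counts were 2232 and 81 (all regions 36.0% and 3.09%), and in clone 3 they were 2266 and 59 (all regions 36.7% and 2.41%). The 3 comparisons share their wild-type libraries. Called higher for the mean and in each clone were 1889 members (all regions 28.9%), and called lower in all were 7 (all regions 0.515%). Against the Btbd7 KO instead of wild type, the mean of the clones gave 2608 members higher and 184 lower (all regions 45.6% and 5.77%), with a median of 1.22.

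The Btbd7 KO itself gave 56 members called higher and 52 lower against wild type (all regions 1.35% and 1.68%), and a median log2 fold change of 0.00. These 2 small counts varied with the library left out, from 33 to 61 higher and from 33 to 55 lower. Those called higher numbered 33 without wild-type library 4 and 35 without Btbd7 KO library 1, and those lower 33 without Btbd7 KO library 4.

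What lay upstream of the gene went with the size of the change. With a divergent non-coding neighbour, 295 of 401 tested members were called higher and 2 lower, with a median log2 fold change of 1.62. With a divergent coding neighbour the counts were 346 and 26 of 960, with a median of 0.30. Members crossed by an opposite-strand gene gave 399 higher and 32 lower of 852 (median 0.54), and those with a neighbour on the same strand 332 and 17 of 699 (median 0.59). The unfiltered share of members above wild type in all 12 libraries followed the same order for the first pair, at 38.5% of 517 and 19.9% of 1090, and was 24.4% and 23.0% for the other classes. At 10 or more wild-type PROMPT counts the medians of the 4 classes were 1.01, 0.21, 0.29 and 0.24, against 0.19 over all regions.

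Among divergent coding pairs the distance between the starts separated the members further. Where the neighbour started under 500 bp away, 171 of 699 tested members were called higher and 24 lower, and the median log2 fold change was 0.19. Where it started 1000 to 5000 bp away, 154 of 217 were called higher and 2 lower, with a median of 1.60. At 10 or more wild-type PROMPT counts 138 of 652 and 76 of 131 were called higher, with medians of 0.16 and 0.78, against 29.2% and 0.19 over all regions. The unfiltered shares were 11.4% of 753 and 41.1% of 285. At non-coding neighbours that start under 500 bp away the counts were 175 higher and 2 lower of 225, with a median of 1.61 (1.36 over the 150 with 10 or more wild-type PROMPT counts), so that closeness alone did not mark the members with small changes.

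**Figure D3:**
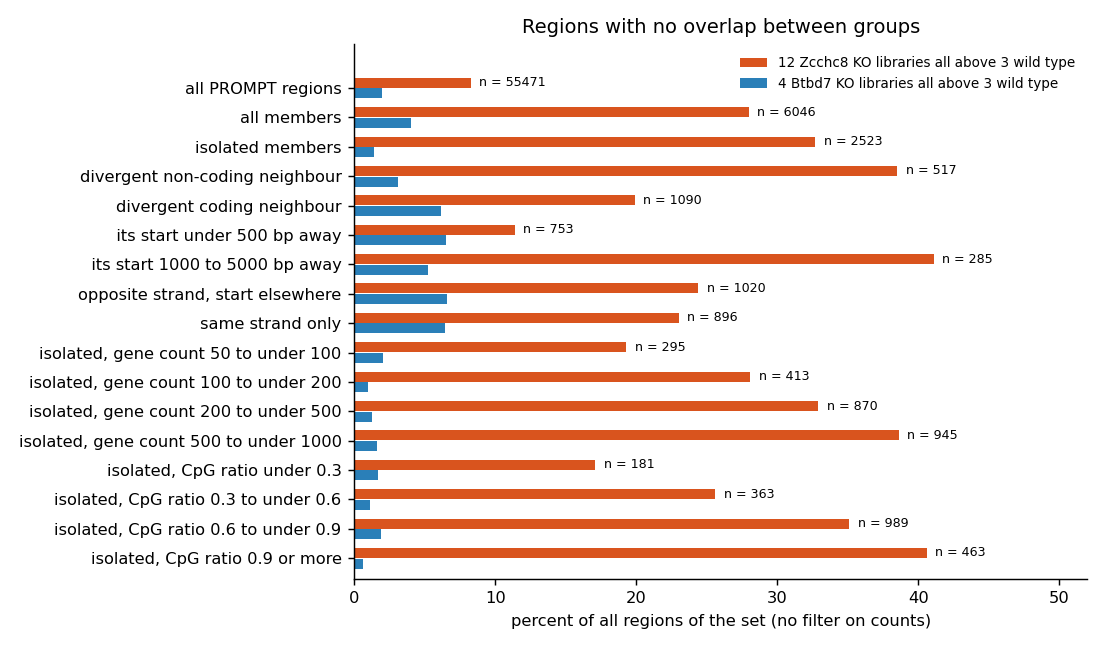
Percent of regions in which all 12 Zcchc8 KO libraries, or all 4 Btbd7 KO libraries, lie above all 3 wild-type libraries, for all PROMPT regions, all members and sets of members; n is the number of regions in the set, with no filter on counts. The Zcchc8 KO share ranges from 11.4% at divergent coding pairs under 500 bp apart to 41.1% at those 1000 to 5000 bp apart, against 8.26% of all regions.

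The counts of members with a neighbour moved with the counts of that neighbour's gene. Across members in wild type, Pearson's r between the log2 CPM of the PROMPT and of the neighbour gene was 0.55 over 1090 divergent coding members, 0.52 over 506 divergent non-coding, 0.66 over 984 with an opposite-strand gene starting elsewhere and 0.68 over 889 with a neighbour on the same strand. The correlation with the member's own gene was 0.02 to 0.11 in these classes and 0.08 over the isolated members. The log2 changes in the Zcchc8 KO correlated with those of the neighbour gene at 0.38, 0.63, 0.73 and 0.36 over 895, 213, 670 and 528 members. All values of a class come from the same libraries and are given as a description. How far a PROMPT region reaches and how reads shared with another transcript were counted is not given in the sources used here, so reads of a neighbour and of a PROMPT cannot be told apart where they overlap.

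Of the 5 members with the largest absolute gains, 4 had a neighbour, and the gene counts of those neighbours ran from 0 to 4980 CPM. Parp2, which encodes a poly(ADP-ribose) polymerase of DNA repair, had the largest, from 2379 CPM in wild type to 3154 in the mean of the clones; Ccnb1ip1 and Rpph1, the gene of the RNase P RNA, are annotated in its 5 kb upstream. In the gene table Ccnb1ip1 was at 0 CPM in both groups and Rpph1 at 0.0773 and 0.151. Gtf3c6, a subunit of the RNA polymerase III factor TFIIIC, went from 118 to 404 CPM, with 2 copies of the U3 RNA gene Rnu3a upstream, at 0 CPM in wild type and 0.201 and 0 in the clones. Mrps18b, a mitochondrial ribosomal protein, went from 55.5 to 305 CPM, and its divergent neighbour Ppp1r10 from 104 to 297 CPM in the gene table. The Dapk3 PROMPT, at 2126 and 2297 CPM, has the elongation factor gene Eef2 upstream on the same strand, at 4690 CPM in wild type and 4980 in the clones. The summed gain over members was 11482.7 CPM, of which 365 members held 50%, and the isolated members held 29.8% of it.

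The fifth of these by gain was an isolated member, Dhx40, and it had the clearest response of any named region. DHX40 is a DEAH-box RNA helicase, and its gene lies at chr11:86768846-86807746 on the minus strand (GRCm38). Its wild-type gene mean of 996 counts puts it just inside the upper bound of the rule. Its PROMPT was at 6.63, 7.83 and 7.40 CPM in wild type and at 5.27, 4.67, 5.92 and 2.79 in the Btbd7 KO. It was at 159, 178, 190 and 191 CPM in clone 1, 103, 110, 84.0 and 96.3 in clone 2 and 140, 131, 152 and 159 in clone 3. No Zcchc8 KO library came near a control library, and clone 2 stayed below the others. The log2 fold change of the mean was 4.23 ± 0.12 (SE; adjusted p = 2.2e-37 with edgeR), and the Btbd7 KO was called slightly lower at -0.65 ± 0.15 (adjusted p = 0.00526). Gene counts of Dhx40 were at 62.4 ± 3.14 CPM in wild type and 58.4 to 68.3 on average in the clones, a change of 0.02 ± 0.06 (adjusted p = 0.817).

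Among isolated members with at least 10 PROMPT counts in every wild-type library, called in each clone and not in the Btbd7 KO, 131 were eligible and the 6 with the largest changes were named. Hspa1b, a stress-inducible HSP70 chaperone gene at chr17:34956436-34959238, had PROMPT levels of 3.98, 3.99 and 3.09 CPM in wild type and 2.46 to 3.94 in the Btbd7 KO. Its levels were 74.9 to 95.1 CPM in clone 1, 41.0 to 47.8 in clone 2 and 46.3 to 66.2 in clone 3, and the log2 fold change was 4.05 ± 0.14 (adjusted p = 3.36e-34). Hspa1b has the near-identical copy Hspa1a beside it, so its counts are uncertain. Its gene did not follow, at 17.4 ± 2.68 CPM in wild type and 13.7 to 16.6 on average in the clones.

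Mtif2 (mitochondrial translation initiation factor, chr11:29526408-29545279) was at 0.923, 1.03 and 0.816 CPM in wild type, from 14 to 16 counts, and at 7.71 to 15.0 CPM in the 12 Zcchc8 KO libraries. Its log2 fold change was 3.62 ± 0.24 (adjusted p = 4.34e-20). The PROMPT of Ccdc15, a coiled-coil gene at chr9:37275835-37348432, was at 0.923, 1.48 and 2.39 CPM in wild type, 1.11 to 1.86 in the Btbd7 KO and 16.1 to 26.2 over the clones, with a change of 3.61 ± 0.19 (adjusted p = 7.17e-25). For Srsf4, a serine/arginine-rich splicing factor (chr4:131873617-131901706), wild type lay at 1.27, 1.70 and 0.757 CPM and the clones at 10.4 to 19.6, a change of 3.49 ± 0.22 (adjusted p = 1.69e-21). In none of the 3 did a Zcchc8 KO library overlap a control library, and none was called different between clones (adjusted p = 0.292, 0.176 and 0.0649).

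Slc9a8, a sodium/proton exchanger (chr2:167421712-167477000), was at 0.692, 1.26 and 1.34 CPM in wild type. It was at 13.4 to 21.4 in clone 1 but 7.71 to 11.2 in clone 2 and 9.31 to 11.5 in clone 3, a mean change of 3.44 ± 0.23 (adjusted p = 7.97e-20). Rfx3, a transcription factor of ciliated cells (chr19:27761721-28011166), was uneven in wild type at 2.02, 0.813 and 0.583 CPM, and at 10.2 to 16 CPM over the clones, a change of 3.43 ± 0.24 (adjusted p = 4.12e-19).

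By abundance in the clones, 892 isolated members were eligible and the next 4 were named. Pdss2, which makes the side chain of coenzyme Q (chr10:43221486-43464882), was at 4.33, 3.47 and 4.49 CPM in wild type and 2.88 to 6.47 in the Btbd7 KO. In the clones it was at 43.8 to 50.6, 30.3 to 37.3 and 28.3 to 42.8 CPM, a mean change of 3.24 ± 0.15 (adjusted p = 3.24e-27). Tbrg4, a regulator of mitochondrial RNA (chr11:6615598-6626067), was at 2.48, 3.92 and 3.32 CPM in wild type and 20.8 to 44.1 over the clones, with a change of 3.28 ± 0.16 (adjusted p = 4.62e-26). Pard6b, a cell polarity protein (chr2:168081004-168101203), was at 3.81, 4.65 and 1.57 CPM in wild type and at 34.2 to 36.6 in clone 1, but 16.2 to 19.8 in clone 2 and 17.5 to 28.1 in clone 3. The fourth, Gm21738, is a predicted gene with many near-identical copies, so its counts are uncertain; its PROMPT went from 16.1, 20 and 19.8 CPM in wild type to 23.7 to 52.8 over the clones (0.78 ± 0.12, adjusted p = 3.14e-07).

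**Figure D4:**
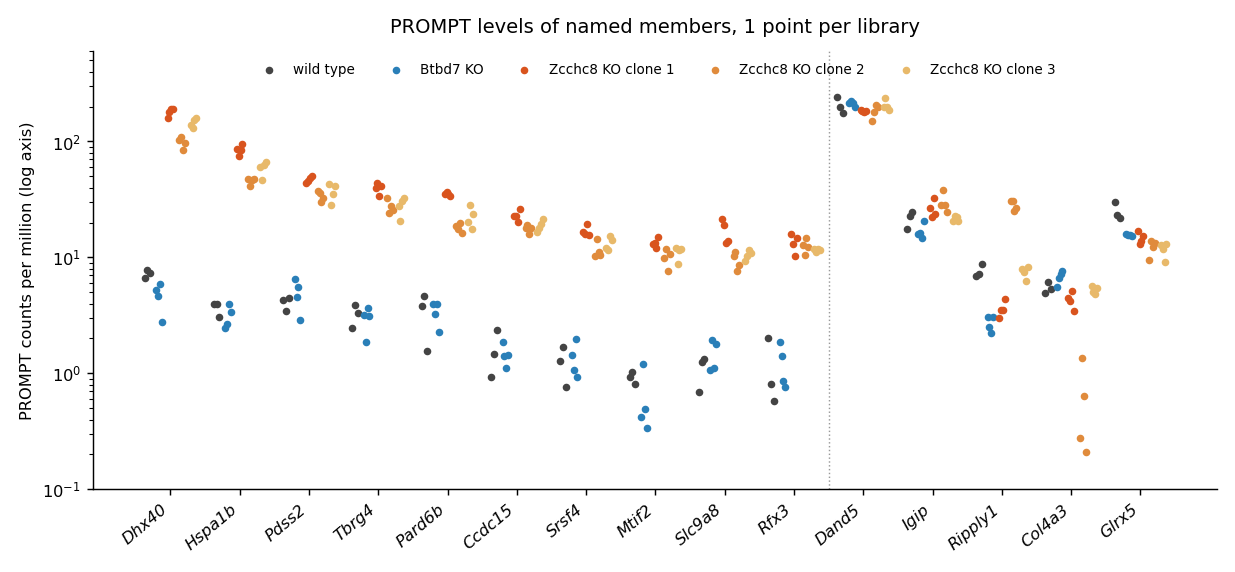
PROMPT levels in CPM, on a log axis, of 15 named members, 1 point per library coloured by group. Left of the dotted line are 10 isolated members called higher in each clone, whose Zcchc8 KO libraries all lie above their control libraries; right of it Dand5, Igip, Ripply1, Col4a3 and Glrx5, where they do not.

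Changes of the PROMPTs and of their genes showed no relation across members. Gene counts were scaled by their own library totals and TMM factors, which centres the typical gene near 0. A general shift of the genes could therefore not have appeared, and only differences between genes are described. Gene changes share the wild-type gene counts that chose the members and are given as a description. Among the 6046 member genes, 841 were called higher and 1106 lower in the Zcchc8 KO (all genes tested 17.5% and 18.7%). Their median log2 fold change was -0.03, against 0.0 over all genes tested. Of the 2487 members whose PROMPT was called higher, 398 had a gene called higher, 410 lower and 1679 neither. Of the 1724 whose PROMPT was not called, the counts were 256, 266 and 1202. Across the 4288 tested members Pearson's r between the 2 log2 fold changes was 0.00, and across the 1376 isolated ones 0.03; both come from the same libraries. Tbrg4 is an example of a gene called lower beside a PROMPT called higher (gene -0.38 ± 0.07, adjusted p = 2.83e-05), and Poli, an error-prone DNA polymerase, of one called higher (gene 0.38 ± 0.11, adjusted p = 0.00423; PROMPT 2.05 ± 0.27, adjusted p = 3.77e-09).

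**Figure D5:**
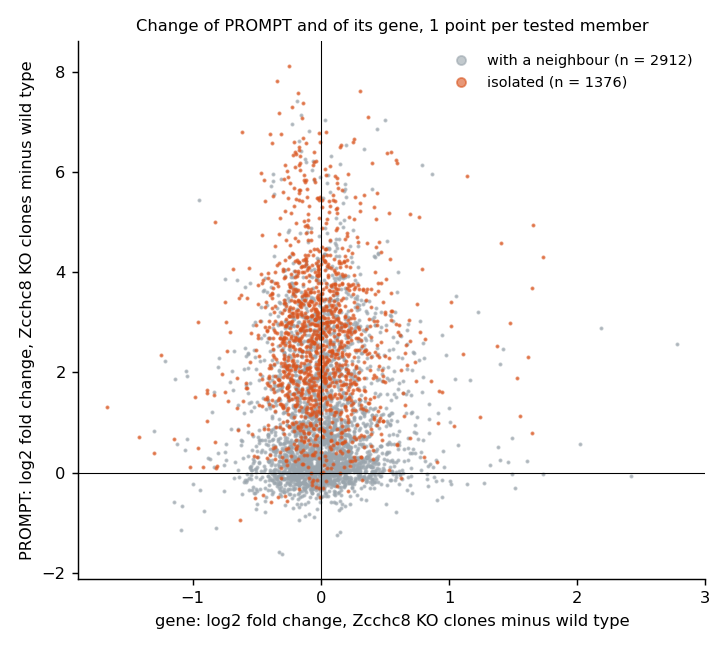
Log2 fold change of the PROMPT (vertical) against that of its gene (horizontal) for the mean of the 3 Zcchc8 KO clones against wild type, 1 point per tested member, isolated members in orange. The PROMPT values of isolated members spread upward from a median of 2.55 with no tilt along the gene axis, with r = 0.03.

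Within the range of expression that defines the set, isolated members of more abundant genes were more often higher. The share above wild type in all 12 libraries was 19.3% of 295 at gene counts of 50 to under 100, 28.1% of 413 at 100 to under 200, 32.9% of 870 at 200 to under 500 and 38.6% of 945 at 500 to under 1000. Among those with at least 10 wild-type PROMPT counts, 18 of 38, 45 of 62, 107 of 135 and 140 of 166 were called higher, with medians of 0.74, 1.71, 1.70 and 1.81. Isolated PROMPTs of genes with a mean of 1000 or more reached 54.3% of 2109, and those of genes under 50 only 0.87% of 7243. In the lowest band 41.0% of the isolated members could be tested, against 61.1% in the highest. These differences between bands were not tested.

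At the edges of the rule, Rpusd3 (50 counts) was the first gene inside and Ptp4a1 (49.67) the first outside, with PROMPTs at 0.190 and 0 CPM in wild type and 0.479 and 0.0449 in the clones. At the upper bound Bin1 (999 counts) was inside and Polg (1000) outside, with PROMPTs at 0.641 and 0.310 CPM in wild type and 2.92 and 0.264 in the clones.

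The rule used no sequence, and the promoters of members lay between those of weaker and stronger coding genes in composition. RefSeq windows of 300 bases (250 before and 50 after the start) could be matched to 4904 of the 6046 members. For 4371 of these the RefSeq start lay within 500 bp of the gene's start used here. Windows with a start further away were kept. The 4904 windows had a median GC content of 60.7% and a median ratio of observed to expected CG pairs of 0.77. Over the 20978 windows matched among all 55471 PROMPT regions these were 55.0% and 0.51. Coding genes with a mean of 1000 or more had medians of 63.7% and 0.84, and those under 50 had 50.7% and 0.27. Among the 1996 isolated members with a window, the unfiltered share above wild type in all 12 Zcchc8 KO libraries was 17.1% of 181 at a CG ratio under 0.3, 25.6% of 363 at 0.3 to 0.6, 35.1% of 989 at 0.6 to 0.9 and 40.6% of 463 at 0.9 or more. The tested members called higher were 49 of 79, 138 of 173, 451 of 546 and 247 of 291, and at 10 or more wild-type PROMPT counts 16 of 30, 27 of 41, 131 of 160 and 74 of 90, with medians over the latter of 0.65, 1.24, 1.80 and 1.86. In the same bands 62.9% of members could be tested at the highest ratio and 43.6% at the lowest, so level and composition moved together and were not separated.

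The letters AATAAA, the common cleavage and polyadenylation signal, lay on the strand opposite to the gene, the strand of a PROMPT, in 107 of the 1996 isolated windows (5.36%), against 9.24% of all windows. Of those 107, 24.3% were above wild type in all 12 Zcchc8 KO libraries, against 33.5% of the 1889 without the letters, and the medians at 10 or more wild-type PROMPT counts were 1.5 over 13 and 1.75 over 308. The same letters on the gene's strand also went with a lower unfiltered share, and whether the strands differ was not tested. On that strand the letters lay in 148 windows (7.41%, all windows 10.5%). Of these 27.7% were above without overlap, against 33.4% of the 1848 without them. The medians there were 1.52 over 20 and 1.75 over 301. Of tested members, 83.1% with the letters on the gene's strand were called higher and 81.1% without them. For the PROMPT strand these shares were 77.6% and 81.4%. On the gene's strand the letters TATAAA were present in 97 (4.86%, all windows 8.84%), of which 24.7% were above without overlap. Each of these letter matches is a description over windows that also differ in GC content.

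The 8 function lists are read against the 39.9% of all regions tested and the 58.0% of members tested that were called higher. The share of tested members called higher ran from 4 of 14 in the aminoacyl-tRNA synthetases to 25 of 33 in growth factor and Wnt signalling, on both sides of these values. Genes of RNA decay (NEXT, the poly(A) tail exosome targeting (PAXT) connection, exosome and cap-binding proteins) had 16 members, of which 14 were tested, 10 higher and 1 lower (Exosc3, an exosome subunit), with a median of 0.77. Dis3l, a cytoplasmic exosome nuclease, had PROMPT levels of 2.83, 3.40 and 2.91 CPM in wild type, 1.02 to 1.87 in the Btbd7 KO and 7.48 to 12.5 in the clones. Its change was 1.68 ± 0.19 (adjusted p = 1.18e-11), and the Btbd7 KO was also called, lower by -0.95 ± 0.24 (adjusted p = 0.016). Genes of RNA 3′ end processing and termination had 21 members, 16 tested, 10 higher and 1 lower (Nudt21), median 1.39. There Ssu72, a phosphatase of the RNA polymerase II tail, went from 1.10, 1.18 and 2.39 CPM to 6.79 to 16.6 over the clones (2.78 ± 0.22, adjusted p = 9.64e-17). For comparison, the median was 0.45 over all regions tested and 1.20 over all tested members. The RNA decay list thus lay below the members as a whole in its median. In its share called higher, 10 of 14, it lay above their 58.0%.

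DNA repair and checkpoint genes had 68 members, 58 tested, 33 higher and 3 lower (Parp3, Msh3 and Fancb), median 0.83. Poli stood at 0.923, 1.70 and 1.11 CPM in wild type and 2.16 to 8.57 in the clones. Mitochondrial ribosome genes had 71 members, 58 tested, 27 higher and 2 lower (Mrpl24 and Mrpl32), median 0.53. Their 12 tested isolated members gave 11 higher with a median of 3.16, where all tested isolated members gave 81.0% higher and a median of 2.55. Mrpl52, a large-subunit protein, was at 1.15, 1.77 and 1.40 CPM in wild type and 5.27 to 11.2 over the clones (2.41 ± 0.25, adjusted p = 2.23e-12).

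Aminoacyl-tRNA synthetases, which charge tRNAs, gave the fewest: 19 members, 14 tested, 4 higher and 0 lower, median 0.09. Only 1 tested member of that list was isolated, Yars2, with 0 to 2 counts per library in wild type and 2 to 42 over the clones, too few for a fold. F-box and cullin ubiquitin ligases had 57 members, 40 tested, 20 higher and 0 lower, median 1.42. Fbxl17, an F-box protein, was at 5.88, 6.87 and 12.3 CPM in wild type and 13.0 to 18.8 over the clones, close to its highest wild-type library (0.85 ± 0.17, adjusted p = 2.15e-05).

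Chromatin modifiers had 35 members, 28 tested, 20 higher and 2 lower (Sirt3 and Brd9), median 1.47. Jarid2, a Polycomb repressive complex cofactor, was at 1.38, 1.99 and 1.11 CPM in wild type and 2.63 to 7.62 over the clones (1.62 ± 0.29, adjusted p = 3.75e-06). Growth factor and Wnt signalling genes had 45 members, 33 tested, 25 higher and 0 lower, median 2.26. Of the tested ones 18 were isolated and 15 of these higher, near the 81.0% of all tested isolated members. Axin1, a scaffold of the beta-catenin destruction complex, changed least clearly among named isolated members called higher. It was at 1.5, 1.62 and 0.583 CPM in wild type and 1.22 to 3.21 over the clones, overlapping (0.90 ± 0.36, adjusted p = 0.0366), and the call was lost without wild-type library 4 (0.55, adjusted p = 0.274).

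Of the 77 members called lower none was isolated, and 72 averaged 50 or more counts. Col4a3, a basement membrane collagen chain (chr1:82586921-82722059), shares its promoter region with Col4a4, whose start lies 72 bp away. Its PROMPT was at 4.96, 6.13 and 5.30 CPM in wild type, 3.48 to 5.11 in clone 1 and 4.85 to 5.68 in clone 3, but 0.277, 1.37, 0.637 and 0.209 in clone 2. The fall was thus in clone 2, at -3.03 ± 0.32 (adjusted p = 3.37e-12), with -0.34 ± 0.27 and -0.04 ± 0.26 in clones 1 and 3 (adjusted p = 0.335 and 0.922). The Col4a3 gene was at 2.61 ± 1.24 CPM in clone 2 against 57.1 ± 3.63 in wild type, and the Col4a4 gene at 5.66 ± 0.91 against 54.4 ± 1.35.

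Glrx5, a glutaredoxin of iron-sulfur cluster assembly (chr12:105032688-105042906), fell from 29.8, 23.1 and 21.9 CPM to 9.20 to 17.1 over the clones (-0.95 ± 0.12, adjusted p = 2.63e-10). The Btbd7 KO, at 15.2 to 15.8 CPM, was lower as well (-0.68 ± 0.14, adjusted p = 0.00211). Its divergent neighbour is the non-coding host gene Snhg10, which had only 0.918 CPM in the gene table in wild type. Slc35a5, a nucleotide sugar transporter (chr16:45139573-45158706), is divergent to the autophagy gene Atg3. Its PROMPT was at 7.5, 9.38 and 9.03 CPM in wild type, 5.84 to 7.20 in the Btbd7 KO and 3.21 to 7.21 over the clones. The mean of the clones fell by edgeR at -0.73 ± 0.18 (adjusted p = 0.000622). Clone 3 alone was not called (-0.45, adjusted p = 0.0994), nor was the mean of the clones against the Btbd7 KO (-0.33, adjusted p = 0.102). The Atg3 gene fell from 54.2 to 37.4, 43.2 and 45.6 CPM in the 3 clones. Trmu, a mitochondrial tRNA-modifying enzyme (chr15:85879312-85897394), fell from 5.71 to 6.57 CPM in wild type to 2.76 to 5.12 over the clones (-0.70 ± 0.19, adjusted p = 0.00201). In clone 1 alone it was not called (-0.52, adjusted p = 0.0844).

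A few abundant isolated PROMPTs were not called for the mean of the clones against wild type. Isolated members that were not called, had on average 50 or more counts and a log2 fold change under 0.3 in size numbered 6, of which 3 were named. Dand5, an inhibitor of Nodal signalling (chr8:84815405-84822823), had a PROMPT at 242, 198 and 176 CPM in wild type, 198 to 222 in the Btbd7 KO and 151 to 237 over the clones. Each KO group overlapped wild type, and the change was -0.11 ± 0.08 (95% interval -0.26 to 0.04, adjusted p = 0.252). The Dand5 gene itself was at only 5.10 ± 1.98 CPM in wild type, far below its PROMPT region. That gene was called higher in the Zcchc8 KO (0.62 ± 0.19, adjusted p = 0.00811 with edgeR). Which transcript the region counts was not tested. Igip was at 17.5, 23.0 and 24.8 CPM in wild type, 14.8 to 20.7 in the Btbd7 KO and 20.5 to 38.2 over the clones (0.24 ± 0.12, 95% interval 0.01 to 0.47, adjusted p = 0.0945). Against wild type it was called higher in clone 2 (0.46, adjusted p = 0.0056) but not in clones 1 (0.28) and 3 (-0.01). The mean of the clones was called higher against the Btbd7 KO (0.60 ± 0.11, adjusted p = 6.26e-06). Without TMM factors it was also called higher against wild type (0.30, adjusted p = 0.0359). Scaled by the PROMPT counts, Igip turned to -0.15 (adjusted p = 0.275) and Dand5 was called lower at -0.51 (adjusted p = 2.5e-07), and without wild-type library 4 Igip was called higher at 0.35 (adjusted p = 0.0339) and Dand5 lower at -0.21 (adjusted p = 0.0378).

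Ripply1, a transcriptional co-repressor gene of somite formation (chrX:139779549-139782353), differed between the lines in its own way. Its PROMPT was at 6.98, 7.17 and 8.86 CPM in wild type, 2.22 to 3.06 in the Btbd7 KO, 3.02 to 4.39 in clone 1, 25.3 to 30.7 in clone 2 and 6.26 to 8.21 in clone 3. The test between clones gave an adjusted p of 2.07e-22, while the mean of the clones was not called (0.26 ± 0.15, adjusted p = 0.164); without clone 1 it was called at 0.92 (adjusted p = 6.81e-07). The gene was likewise highest in clone 2 and low in the Btbd7 KO and clone 1, at 5.79 ± 0.88 CPM in wild type, 1.97 ± 0.61 in the Btbd7 KO, 1.70 ± 0.57 in clone 1, 17.0 ± 2.33 in clone 2 and 3.83 ± 0.85 in clone 3.

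Between the 3 clones, 403 of the 4288 tested members differed (all regions 10.9%), and 106 of the 1376 isolated ones. Clone 1 was the highest at 276 of the 403, clone 2 at 86 and clone 3 at 41. Ccdc68, a centrosomal coiled-coil protein, was at 3.00, 2.14 and 2.10 CPM in wild type, 22.7 to 30.6 in clone 1, 8.08 to 11.9 in clone 2 and 12.9 to 17.6 in clone 3, with no overlap between any of these groups (adjusted p between clones = 5.02e-10). Clone 1 also has the shallowest libraries, whose part in this order was not tested; without them the mean of the other 2 clones gave 2228 members higher and 84 lower.

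The Btbd7 KO moved a few members. Of 75 eligible, Cxcl2, a neutrophil-attracting chemokine (chr5:90903871-90905938), was at 0.519, 0.517 and 0.291 CPM in wild type and 0.898 to 1.93 in the Btbd7 KO (1.65 ± 0.37, adjusted p = 0.00481), from 5 to 9 counts per library in wild type. That call was lost without wild-type library 4 (1.42, adjusted p = 0.0533), fitted only to the groups compared (adjusted p = 0.141) and after thinning (adjusted p = 0.104). In the Zcchc8 KO it was at 5.09 to 9.83 CPM, a change of 4.10 ± 0.30 (adjusted p = 1.35e-18). Psme2b, a copy of the proteasome activator gene Psme2 whose counts are therefore uncertain, was at 2.97 to 3.62 CPM in wild type, 7.87 to 9.58 in the Btbd7 KO and 8.43 to 10.3 in clone 3, but 1.91 to 4.24 in clones 1 and 2.

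In the other direction, Rufy3, a neuronal polarity protein (chr5:88565040-88651392), was at 2.19, 1.70 and 1.17 CPM in wild type and 0.333 to 0.847 in the Btbd7 KO (-1.67 ± 0.33, adjusted p = 0.00107), with no overlap. That call was lost when edgeR was fitted only to the groups compared (-1.67, adjusted p = 0.0948) and after thinning (-1.28, adjusted p = 0.139). In the clones it was at 6.79 to 13.7 CPM (2.55 ± 0.22, adjusted p = 7.23e-16). Wdr45, an autophagy protein (chrX:7714333-7728206), was at 0.288, 1.85 and 0.932 CPM in wild type and 0.180 to 0.400 in the Btbd7 KO. The groups overlapped, and the call (-1.71 ± 0.46, adjusted p = 0.0252) was lost without wild-type library 3 (-1.04, adjusted p = 0.293). In the clones the Wdr45 PROMPT was at 6.27 to 18.4 CPM (3.52 ± 0.26, adjusted p = 5.1e-18).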

How the data were processed

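Total RNA of 20 libraries of SIMS cells was prepared with the Illumina TruSeq Stranded Total RNA kit, per the labels' protocols, and STAR 2.7.3a is named in the submitters' processing notes. The authors deposited raw read counts per gene and per PROMPT region for 19 of these libraries; the counter, the genome build, the use of strand and the extent of a PROMPT region are not given in the sources used here. Gene types and positions came from GENCODE M21 on GRCm38, matched to 99.6% of the 55471 identifiers once version numbers were dropped.

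PROMPT counts were tested with edgeR 4.0.16 (quasi-likelihood test, R 4.3.3) over the whole PROMPT table with all 5 groups in 1 fit, library sizes and TMM factors from the gene table, edgeR's filter on low counts by group and Benjamini-Hochberg adjustment over 17655 regions. CPM are on that scale, and adjusted p-values are from edgeR throughout. DESeq2 1.42.0, other filters, other scalings, thinning and left-out libraries were alternatives. Non-overlap counts used no filter. On simulated counts for the clone mean (17655 regions, 200 changed, as many up as down), 49% of 2-fold and 90% of 4-fold changes were recovered, with 4.14% false calls. In the data 7036 regions were called higher and 585 lower, so these rates need not hold for the real comparison. All 27 pairs of libraries within a group differed by more than counting error, with a chi-square of 2.4 to 11.2 times its degrees of freedom.

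The members, the function lists and the alternatives were chosen with earlier results of these data known. Named were, of isolated members called in each clone and not in the Btbd7 KO, the 6 with the largest change among those with at least 10 counts in every wild-type library, and the next 4 by abundance in the clones. Named too were the 4 lowest among members called lower, the 3 isolated ones not called with the smallest SE and a log2 fold change under 0.3, the 3 isolated ones with the smallest p between clones, and the 2 highest and 2 lowest of those called in the Btbd7 KO, each with a mean of at least 50 counts. From each function list came the isolated tested member most abundant in wild type. Other members named by gain, at the bounds of the rule or as the lower calls of a list were named by rank or for a count of 5 or fewer, after their values were seen.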

Additional observations from a re-analysis of the deposited data

Results flagged for a closer look

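The 31 named members gave 124 groups of 4 libraries, of which 3 held a library that stood apart from the other 3 by Dixon's criterion, where chance gives about 1 in 20. The Slc35a5 PROMPT was at 7.21 CPM in clone 1 library 1, against 3.21 to 3.26 in the other clone 1 libraries. Mrpl52 was at 10.7 CPM in clone 3 library 3, against 5.27 to 6.18, and Axin1 at 1.22 CPM in clone 2 library 3, against 2.37 to 2.49.

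For 15 of the 31, the change against wild type differed between the 3 Zcchc8 KO clones in edgeR's test with 2 degrees of freedom. Clone 1 had the largest change at Hspa1b (adjusted p = 5.6e-09), Slc9a8 (adjusted p = 0.000911), Pdss2 (adjusted p = 0.0154), Tbrg4 (adjusted p = 0.00335) and Pard6b (adjusted p = 5.47e-06). The same order held at Ccdc68 (adjusted p = 5.02e-10), Dhx40 (adjusted p = 1.49e-09), Ssu72 (adjusted p = 0.0437), Poli (adjusted p = 0.00143) and Gm21738 (adjusted p = 0.0283).

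Clone 2 stood apart at Col4a3, where it fell (adjusted p = 1.12e-10), and was highest at Ripply1 (adjusted p = 2.07e-22) and Igip (adjusted p = 0.0312). Clone 3 was highest at Psme2b (adjusted p = 5.26e-11) and Rufy3 (adjusted p = 0.0196).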

How the results depend on the processing

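Of the alternative values of counts of calls, 396 stayed within 1.5 times the reported one and 42 did not; the cause was not tested except where fewer members or libraries enter. Scaled within the PROMPT table, calls lower rose to 623 for the mean of the clones, 587, 450 and 466 in clones 1, 2 and 3, and 764 against the Btbd7 KO, and the share of calls that were higher went from 97.0% to 75.2%. That scaling moved the median of all regions from 0.45 to 0.02 and of members from 1.20 to 0.73. Without TMM factors, 49 (mean) and 38 (clone 3) were lower.

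Restricted to isolated members, calls higher and lower were 1115 and 0 (mean), 1095 and 2 (clone 1), 1029 and 1 (clone 2), 1026 and 0 (clone 3), 1148 and 4 (against Btbd7) and 11 and 14 (Btbd7 KO), with 106 between clones. With at least 10 wild-type PROMPT counts, calls higher were 1136, 1145, 997, 1040 and 1271 in that order. With an absolute log2 fold change over 1, calls lower were 2, 5, 8, 2 and 7. The Btbd7 KO then gave 23 higher and 23 lower; it gave 30 and 23 fitted only with wild type, 18 and 31 after thinning, 36 higher with no filter and 83 lower with DESeq2.

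Leaving out 1 library at a time, the Btbd7 KO gave 33 to 61 higher and 33 to 55 lower, clone 1 gave 51 to 90 lower (51 without wild-type library 2), and the mean 2300 to 2500 higher. Igip turned to -0.15 and Ripply1 to -0.14 when scaled within the PROMPT table, and Dand5 ranged from -0.21 to 0.02, the latter without wild-type library 2. The Axin1 call was also lost with no filter (0.90), after thinning (0.73) and without clone 1 (0.81), and the Btbd7 KO calls of Cxcl2 (adjusted p = 0.141) and Rufy3 (adjusted p = 0.0948) were lost when edgeR was fitted only to the groups compared.

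With the replicate number as a block, 2412 members were higher and 68 lower for the mean. The Btbd7 KO then gave 40 higher and 49 lower, against 56 and 52 without the block. Same-numbered libraries did not deviate together over the tested regions (r from -0.046 to 0.025 over 36 pairs). Counting noise at regions with few counts lowers such an r, so this check did not settle whether the numbers pair the samples. Scaling within the PROMPT table and thinning were not run for the gene counts. At this depth only 4288 of 6046 members could be tested.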
